A study of Homo sapiens with 32 samples.

Results

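STC2, GDF15, VEGFA, ADM2, FGF19 and CXCL8 encode 6 proteins or peptides that cells secrete under stress, and they are 6 of the 15105 named genes with at least 1 read in this series. They were chosen by name, and each gene is given by its RefSeq transcript with the highest read sum. The series followed messenger RNA in HCT116, an established human colorectal carcinoma line, by SLAM-seq. In that assay cells take up 4-thiouridine (s4U), and RNA made during the pulse is later recognised by T-to-C conversions in its reads. Reads with conversions are called labelled reads here, and their part of all reads of a gene is its labelled share. The tagged cells carried the degron mAID on both endogenous copies of IGF2BP3, an RNA-binding protein, together with a doxycycline-inducible OsTIR1, the plant receptor that sends mAID fusions to the proteasome when auxin is present. The parental cells carried OsTIR1 without mAID. All wells, controls included, received 200 ng/mL doxycycline for 24 h and 250 uM s4U for 2 h. Auxin was given at 500 uM for 9 h and tunicamycin, the drug used for endoplasmic reticulum (ER) stress, at 5 ug/mL for 5 h, with DMSO as the vehicle of both. The 8 groups of 4 libraries were tagged cells stressed with auxin, stressed with vehicle, unstressed with auxin and unstressed with vehicle, and parental cells in the same 4 states. A library is 1 well, so p-values measure the spread between wells. Whether the tagged line was 1 clone is not given in the sources used here, and auxin acts on the IGF2BP3 protein, which was not measured in these libraries.

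Tunicamycin blocks N-linked glycosylation, so that proteins misfold in the ER, which sets off the unfolded protein response. One of its arms runs through the kinase PERK and the transcription factors ATF4 and CHOP, which raise genes of amino acid supply and a number of secreted signals. GDF15 is a distant TGF-beta relative that signals to the brainstem through GFRAL and RET and lowers appetite. STC2, stanniocalcin 2, is a glycoprotein that inhibits the protease PAPPA and with it the release of insulin-like growth factors. VEGFA drives the growth of blood vessels through KDR and FLT1. ADM2, also called intermedin, is a peptide of the calcitonin family that acts through CALCRL with a RAMP partner. FGF19 is a hormone of the gut that signals to the liver through FGFR4 and KLB and lowers bile acid synthesis. CXCL8, interleukin 8, attracts neutrophils through CXCR1 and CXCR2.

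The libraries held 0.987 M to 6.98 M reads in named genes, with a median of 3.54 M, and 8.88% to 13.5% of these reads were labelled. The smallest library was replicate 1 of stressed parental cells with auxin. The next smallest held 2.55 M reads. That library also held the lowest STC2 and GDF15 and the highest ADM2 and FGF19 levels of all stressed parental libraries, and stress results that use it are also given without it, as are other results where leaving it out changed a call or a sign. Epithelial markers were present, among them EPCAM at 125 to 436 CPM and KRT19 at 702 to 1159 CPM. Of the colon markers, CDX2 was read at 19.5 to 38.1 CPM, whereas VIL1 and LGALS4 had a median of 0 CPM. The leukocyte markers PTPRC, CD3E and CD14 and the endothelial markers PECAM1, VWF and CDH5 also had a median of 0 CPM, and among 3 fibroblast markers COL1A1 was read at 18.4 to 59.7 CPM while COL1A2 and DCN had a median of 0 CPM. IGF2BP3 mRNA was read in every library, at 130 to 235 CPM.

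STC2 was counted over a 3124-base region of transcript NM_003714.2 (chr5:173314723-173328414, hg38) and GDF15 over 241 bases of NM_004864.2 (chr19:18386158-18389176), the span of which also holds the microRNA gene MIR3189. VEGFA was counted over 1941 bases of NM_001025369.2 (chr6:43770211-43786487), whose reads were counted again for other VEGFA transcripts among 19 matched ones. ADM2 was counted over 3534 bases of NM_001253845.1 (chr22:50481543-50486437), FGF19 over 1024 bases of NM_005117.2 (chr11:69698238-69704022) and CXCL8 over 1252 bases of NM_000584.3 (chr4:73740569-73743716). Over all libraries STC2 had 46271 reads, GDF15 31607, VEGFA 4036, FGF19 1784, ADM2 1647 and CXCL8 77. CXCL8 was too low to test in both total and labelled reads. The other 5 genes passed both filters on low counts.

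The upstream sequences of STC2, GDF15 and ADM2, which rose together with tunicamycin, are shown with that of CXCL8, which was read at near 0 throughout. Each runs from 250 bases before to 50 bases after the start of the gene, on the gene's own strand, from RefSeq (GRCh38.p14). Capitals mark the motifs found, and sequences were found for 4 of the 6 genes.
STC2: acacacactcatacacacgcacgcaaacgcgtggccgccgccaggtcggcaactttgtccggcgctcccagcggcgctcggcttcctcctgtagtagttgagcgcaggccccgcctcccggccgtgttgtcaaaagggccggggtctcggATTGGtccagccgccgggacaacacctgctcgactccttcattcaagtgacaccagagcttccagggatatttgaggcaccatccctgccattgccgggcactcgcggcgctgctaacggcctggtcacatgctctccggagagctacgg
GDF15: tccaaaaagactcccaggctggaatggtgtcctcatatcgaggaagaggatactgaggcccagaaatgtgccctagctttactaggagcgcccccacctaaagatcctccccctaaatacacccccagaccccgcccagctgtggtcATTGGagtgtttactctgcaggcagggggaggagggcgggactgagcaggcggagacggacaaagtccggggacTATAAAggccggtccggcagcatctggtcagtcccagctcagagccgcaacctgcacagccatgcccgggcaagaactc
ADM2: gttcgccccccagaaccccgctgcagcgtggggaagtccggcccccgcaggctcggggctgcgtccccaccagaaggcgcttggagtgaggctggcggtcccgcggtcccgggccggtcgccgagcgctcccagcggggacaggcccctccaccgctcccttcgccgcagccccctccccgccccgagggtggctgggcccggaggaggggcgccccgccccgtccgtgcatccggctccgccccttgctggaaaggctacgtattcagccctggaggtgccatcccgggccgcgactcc
CXCL8: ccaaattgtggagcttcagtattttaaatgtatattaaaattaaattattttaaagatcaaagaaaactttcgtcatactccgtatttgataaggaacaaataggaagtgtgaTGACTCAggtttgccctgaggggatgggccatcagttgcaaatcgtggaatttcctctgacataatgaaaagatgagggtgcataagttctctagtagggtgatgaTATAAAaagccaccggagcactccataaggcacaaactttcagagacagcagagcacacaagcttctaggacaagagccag

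The windows are chr5:173328365-173328664 on the minus strand for STC2, chr19:18385908-18386207 on the plus strand for GDF15, chr22:50481293-50481592 on the plus strand for ADM2 and chr4:73740319-73740618 on the plus strand for CXCL8. Both strands were searched for TGATGNAA, the C/EBP-ATF type of site, for the ER stress element, for TGACGTGG, the UPR element, and for ACGTG, which lies within the UPR element and is also the core of hypoxia elements. None of these motifs stood in the 4 windows. Among 35116 promoters of the same length, 3.62% held the first, 0.0769% the second, 0.729% the third and 21.4% the last. The AP-1 motif TGACTCA stood in the CXCL8 window, starting 137 bases before the gene start, and in 4.95% of all promoters. The CCAAT and TATAAA boxes were added to the search after the sequences had been seen. CCAAT, held by 34.6% of promoters, stood on the minus strand in STC2 and GDF15, and TATAAA, held by 11.5%, stood in GDF15 and CXCL8, starting 29 and 31 bases before the gene start.

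The first question was what tunicamycin does to these mRNAs, in each line and with or without auxin. Total reads of STC2, GDF15, VEGFA and ADM2 rose with stress in all 4 comparisons, by 2.27-fold to 8.30-fold. FGF19 passed the edgeR test only in parental cells without auxin, with smaller values in the other comparisons. Levels are in CPM, reads of a gene per 1 M reads on TMM-scaled library sizes, and a change in CPM is a change relative to the other mRNA of a well, so that fewer cells and less RNA per cell cannot be told apart. Of the 6 genes, 4 passed the test upwards in stressed tagged cells with auxin, where 3.02% of all 11186 genes tested were called higher, and 4 in tagged cells without auxin, against 2.92% of all genes. In parental cells 4 were called higher with auxin, against 7.26% of all genes, and 5 without auxin, against 7.65%. The median log2 fold change of the 5 tested genes was 1.71 in tagged cells with auxin, 1.78 in tagged cells without, 1.74 in parental cells with auxin and 2.04 in parental cells without, and that of all genes was between -0.01 and 0. The genes were chosen with these results known, so the counts describe them and are not a test of the group. How many of all genes had stressed and unstressed groups without overlap, in reads or in labelled share, is not given here. Such separation therefore describes these genes and does not set them apart from others. The 4 comparisons use separate libraries.

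**Figure D1:**
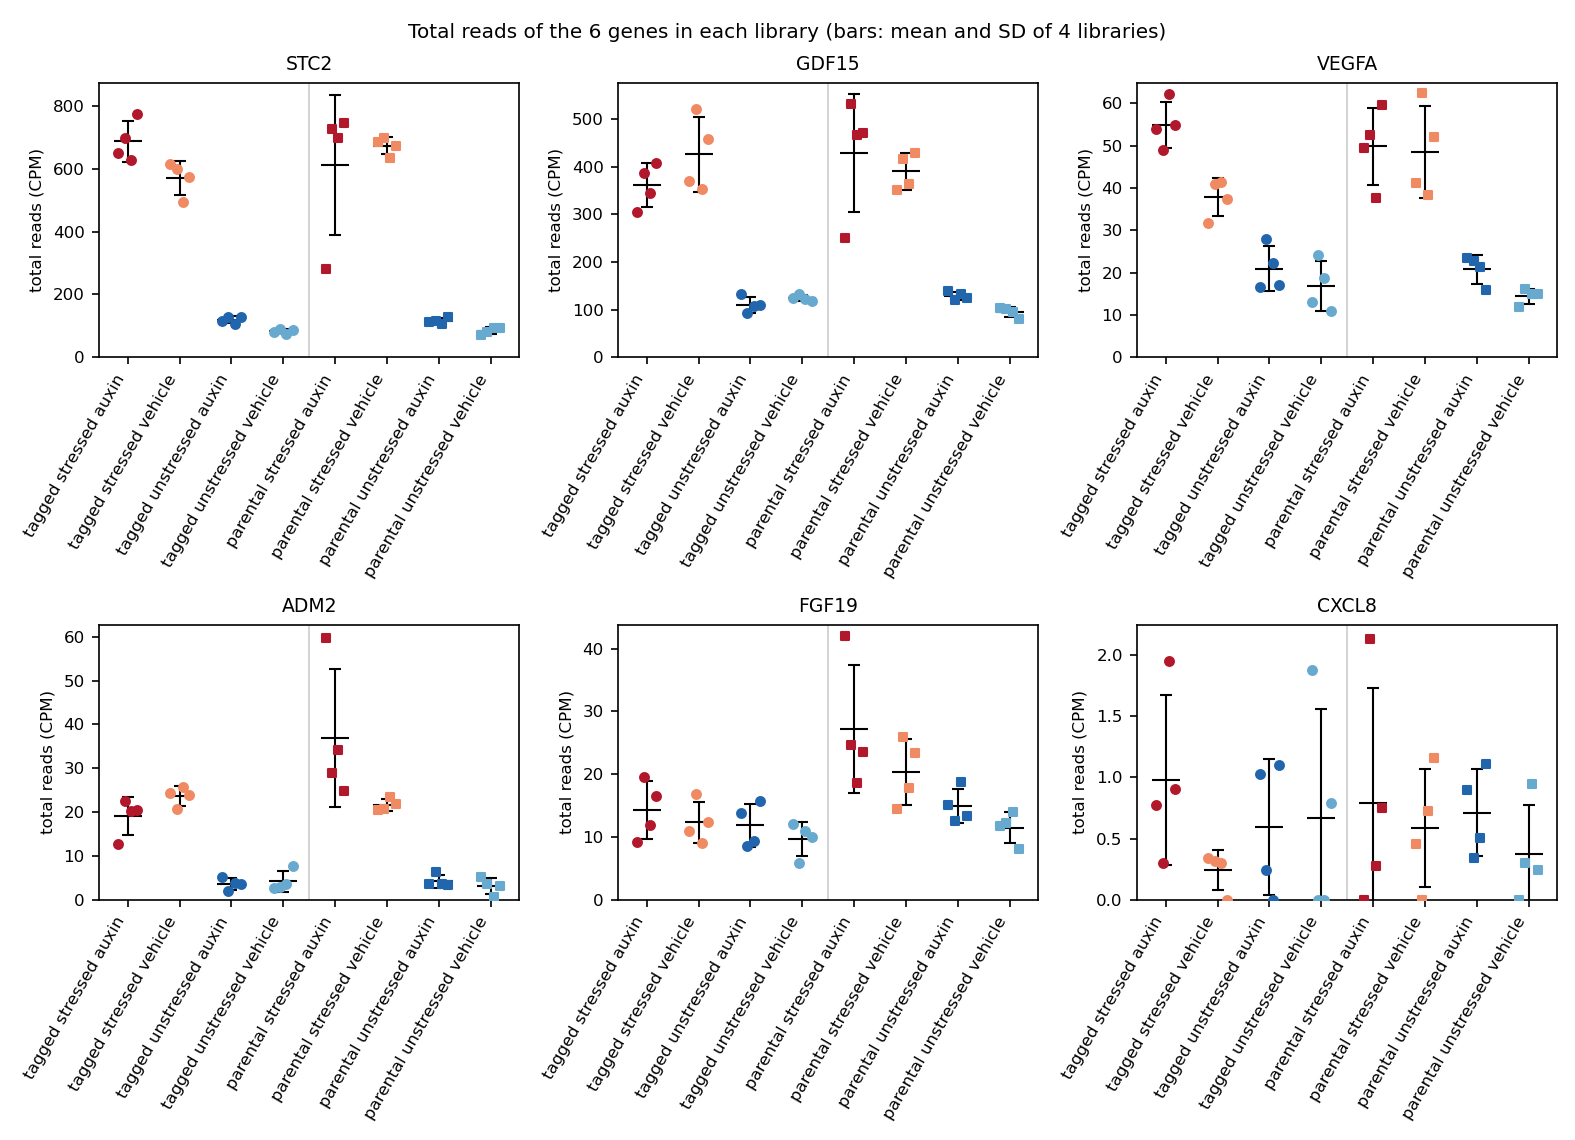
Total reads (CPM, linear axes from 0) of the 6 genes in each of the 32 libraries, with 1 panel per gene. Points are libraries, circles for tagged and squares for parental cells, and bars are the mean and SD of 4 libraries, cut off at 0. Stressed libraries (red and orange) lie above unstressed ones (blue) for STC2, GDF15, VEGFA and ADM2, while FGF19 overlaps in 3 of 4 comparisons and CXCL8 stays at or below 2.13 CPM.

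STC2 stood at 651, 698, 627 and 774 CPM in stressed tagged cells with auxin, against 116, 129, 106 and 129 CPM in unstressed tagged cells with auxin. Without auxin it stood at 616, 601, 495 and 573 CPM in stressed tagged cells, against 79.0, 90.5, 75.4 and 86.4 CPM in unstressed ones. The groups were far apart in both. In parental cells with auxin, stressed libraries had 280, 727, 699 and 747 CPM, against 113, 117, 105 and 127 CPM in unstressed ones. Without auxin, stressed parental libraries had 687, 697, 634 and 674 CPM, against 71.6, 79.7, 94.6 and 92.9 CPM in unstressed ones. Every stressed library was above every unstressed one, and the only stressed library below 495 CPM was the smallest one, at 280 CPM. The log2 fold changes were 2.52 ± 0.18 (standard error, 5.72-fold) in tagged cells with auxin, 2.78 ± 0.18 (6.89-fold) in tagged cells without, 2.42 ± 0.18 (5.36-fold) in parental cells with auxin and 2.99 ± 0.18 (7.93-fold) in parental cells without. The edgeR adjusted p-values lay between 1.59e-13 and 1.48e-11. Without the smallest library the third value was 2.65 ± 0.10.

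GDF15 stood at 304, 387, 345 and 407 CPM in stressed tagged cells with auxin, against 133, 92.4, 107 and 110 CPM in unstressed tagged cells with auxin. Without auxin the stressed tagged libraries had 369, 522, 354 and 459 CPM, against 124, 133, 122 and 117 CPM in the unstressed ones. Stressed parental libraries with auxin had 249, 531, 467 and 470 CPM, against 139, 120, 133 and 125 CPM in unstressed ones. Stressed parental libraries with vehicle had 351, 416, 364 and 429 CPM, against 103, 101, 94.4 and 80.8 CPM in unstressed ones. No stressed library reached down to the unstressed range, and the lowest stressed value, 249 CPM, was again that of the smallest library. The log2 fold changes were 1.71 ± 0.16 (3.27-fold) and 1.78 ± 0.16 (3.43-fold) in tagged cells with and without auxin, and 1.74 ± 0.16 (3.35-fold) and 2.04 ± 0.16 (4.11-fold) in parental cells with and without auxin. The edgeR adjusted p-values were 5.46e-09 or below. Without the smallest library the value in parental cells with auxin was 1.92 ± 0.12.

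ADM2, at a lower read count, stood at 12.7, 22.6, 20.3 and 20.5 CPM in stressed tagged cells with auxin, against 5.16, 1.96, 3.88 and 3.58 CPM in unstressed ones. Without auxin it stood at 24.5, 20.6, 25.8 and 23.9 CPM in stressed tagged cells, against 2.63, 2.94, 3.56 and 7.62 CPM in unstressed ones. Neither pair of groups overlapped. The parental line with auxin had 59.7, 28.9, 34.1 and 24.8 CPM when stressed, against 3.60, 6.44, 3.55 and 3.32 CPM when unstressed. In parental cells without auxin it stood at 20.4, 20.7, 23.6 and 21.9 CPM when stressed, against 5.09, 3.57, 0.710 and 3.16 CPM when unstressed. The highest value, 59.7 CPM, came from the smallest library, in which STC2 and GDF15 were lowest among stressed libraries, and rested on 47 reads. The log2 fold changes were 2.42 ± 0.34 (5.37-fold) and 2.44 ± 0.33 (5.42-fold) in tagged cells with and without auxin, and 3.05 ± 0.33 (8.30-fold) and 2.83 ± 0.34 (7.10-fold) in parental cells, with edgeR adjusted p-values of 7.28e-06 or below. Without the smallest library the value in parental cells with auxin was 2.82 ± 0.29. Unstressed groups held 44 to 61 ADM2 reads over 4 libraries.

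VEGFA stood at 54.0, 49.0, 62.2 and 54.8 CPM in stressed tagged cells with auxin, against 16.5, 27.9, 22.3 and 17.1 CPM in unstressed ones. Without auxin it stood at 31.7, 40.9, 41.5 and 37.5 CPM in stressed tagged cells, against 13.2, 24.2, 18.8 and 11 CPM in unstressed ones. The parental line with auxin had 49.6, 52.6, 37.7 and 59.5 CPM when stressed, against 23.4, 22.7, 21.3 and 15.8 CPM when unstressed. The groups did not overlap in these 3 comparisons, nor in parental cells without auxin. There it stood at 41.3, 62.4, 38.4 and 52.0 CPM when stressed, against 11.8, 16.1, 14.9 and 14.8 CPM when unstressed. The log2 fold changes were 1.39 ± 0.20 (2.61-fold) and 1.18 ± 0.21 (2.27-fold) in tagged cells with and without auxin, and 1.26 ± 0.20 (2.40-fold) and 1.75 ± 0.20 (3.37-fold) in parental cells with and without auxin. The edgeR adjusted p-values were 0.000271 or below, and VEGFA in the smallest library, at 49.6 CPM, lay among its group mates. The value in parental cells with auxin was 1.26 ± 0.20 without it as well.

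FGF19 stood at 9.26, 19.6, 11.9 and 16.5 CPM in stressed tagged cells with auxin, against 13.7, 8.58, 9.38 and 15.7 CPM in unstressed ones. Without auxin it stood at 11, 16.8, 9.10 and 12.3 CPM in stressed tagged cells, against 12.0, 5.88, 11 and 9.98 CPM in unstressed ones. Both pairs overlapped, and the log2 fold changes of 0.28 ± 0.27 and 0.34 ± 0.29 had edgeR adjusted p-values of 0.799 and 0.762. Parental cells with auxin had 42.0, 24.6, 18.6 and 23.5 CPM when stressed, against 15.1, 12.6, 18.8 and 13.3 CPM when unstressed. In parental cells without auxin it stood at 14.5, 25.9, 17.7 and 23.3 CPM when stressed, against 11.8, 12.2, 14 and 8.03 CPM when unstressed. The last pair was separated by a narrow gap, and the pair with auxin overlapped. The log2 fold changes were 0.76 ± 0.26 (1.69-fold) with auxin, with an edgeR adjusted p of 0.0613, and 0.83 ± 0.26 (1.78-fold) without, with an edgeR adjusted p of 0.0312. The call without auxin was lost, at adjusted p-values of 0.0649 to 0.139, when any of 5 libraries was left out: replicates 2 and 4 of the stressed group and replicates 1, 2 and 4 of the unstressed group. With auxin the value was 0.57 ± 0.25 (adjusted p 0.167) without the smallest library and 0.91 (0.0296) without replicate 3 of the stressed group. DESeq2 called it with all libraries, at 0.79 (0.0302). For FGF19 the stress effect in tagged minus that in parental cells, both without auxin, was -0.49 ± 0.39 (edgeR adjusted p 0.739).

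CXCL8 had 0 to 10 reads in a library and 3 to 17 in a group of 4. Its means were 0.981 ± 0.695 and 0.241 ± 0.162 CPM (SD, n = 4) in stressed tagged cells with auxin and with vehicle, and 0.594 ± 0.554 and 0.667 ± 0.890 CPM in unstressed tagged cells with auxin and with vehicle. In parental cells they were 0.789 ± 0.946 and 0.586 ± 0.486 CPM when stressed, with auxin and with vehicle, and 0.713 ± 0.352 and 0.372 ± 0.404 CPM when unstressed. All groups overlapped. Two-sided exact permutation tests of 4 against 4 libraries for the 8 stress and auxin comparisons gave p-values of 0.114 to 1, all 0.914 or more after adjustment over the 8, where the smallest p possible is 0.0286. A single comparison at that p would stand at 0.229 after the adjustment, so these tests could hardly pass. The 17 reads of stressed tagged cells with auxin have an exact 95% Poisson interval of 9.90 to 27.2 reads and the 3 reads of stressed tagged cells with vehicle one of 0.619 to 8.77, which do not overlap but cover counting error only. No labelled share is given for CXCL8.

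Labelled reads, taken here to come from RNA made during the last 2 h, rose with stress for each of the 5 tested genes in each of the 4 comparisons. All wells received s4U, so reads with conversions of another origin could not be set apart. Labelled reads were scaled by TMM factors of their own, so a change is relative to the labelled reads of the typical gene. All 5 were called higher in tagged cells with auxin, where 6.94% of 8980 genes were, and in tagged cells without auxin, against 6.88% of genes. All 5 were also called higher in parental cells with auxin, against 7.91% of genes, and without auxin, against 10.1%. Labelled STC2 reads stood at 1901 ± 252 labelled CPM (SD, n = 4) in stressed tagged cells with auxin, against 383 ± 51.1 in unstressed ones, and at 1711 ± 245 against 248 ± 14.5 without auxin. In parental cells they stood at 1770 ± 604 when stressed with auxin, against 390 ± 27.1 when unstressed with auxin, and at 1906 ± 166 against 273 ± 40.3 with vehicle. The log2 fold changes of labelled STC2 reads were 2.31, 2.79, 2.23 and 2.80 in the order of these comparisons, each with a standard error of 0.16.

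Labelled GDF15 reads were 1.95 ± 0.17, 2.27 ± 0.17, 2.21 ± 0.17 and 2.55 ± 0.17 higher on the log2 scale in the same order, and those of ADM2 2.29 ± 0.50, 3.12 ± 0.50, 3.63 ± 0.52 and 2.45 ± 0.46. Labelled VEGFA reads were 1.14 ± 0.23, 1.16 ± 0.26, 1.00 ± 0.24 and 1.43 ± 0.23 higher. FGF19, called once in total reads, was called in all 4 comparisons here, at 1.56 ± 0.45 and 1.72 ± 0.51 in tagged cells with and without auxin and 1.80 ± 0.42 and 1.98 ± 0.42 in parental cells. The edgeR adjusted p-values of FGF19 were 0.0135, 0.0168, 0.00122 and 0.000247. Labelled FGF19 reads were few, 6 to 30 per library in stressed tagged cells with auxin against 2 to 9 in unstressed ones. In tagged cells with auxin the FGF19 call was lost at 0.0836 and 0.0928 when replicate 4 of the stressed or replicate 2 of the unstressed group was left out. In tagged cells without auxin it was lost, at 0.0541 to 0.0819, without replicate 1 or 4 of the stressed or replicate 2, 3 or 4 of the unstressed group. Without the smallest library the values in parental cells with auxin were 2.39 for STC2, 2.35 for GDF15, 3.45 for ADM2, 0.88 for VEGFA and 1.65 for FGF19, all still called, with an edgeR adjusted p of 0.00192 for FGF19. Scaled by total reads instead, the median of all genes shifted by -0.28 and -0.24 in tagged cells with and without auxin and by -0.31 and -0.28 in parental cells, and all 5 genes were still called in each comparison.

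**Figure D2:**
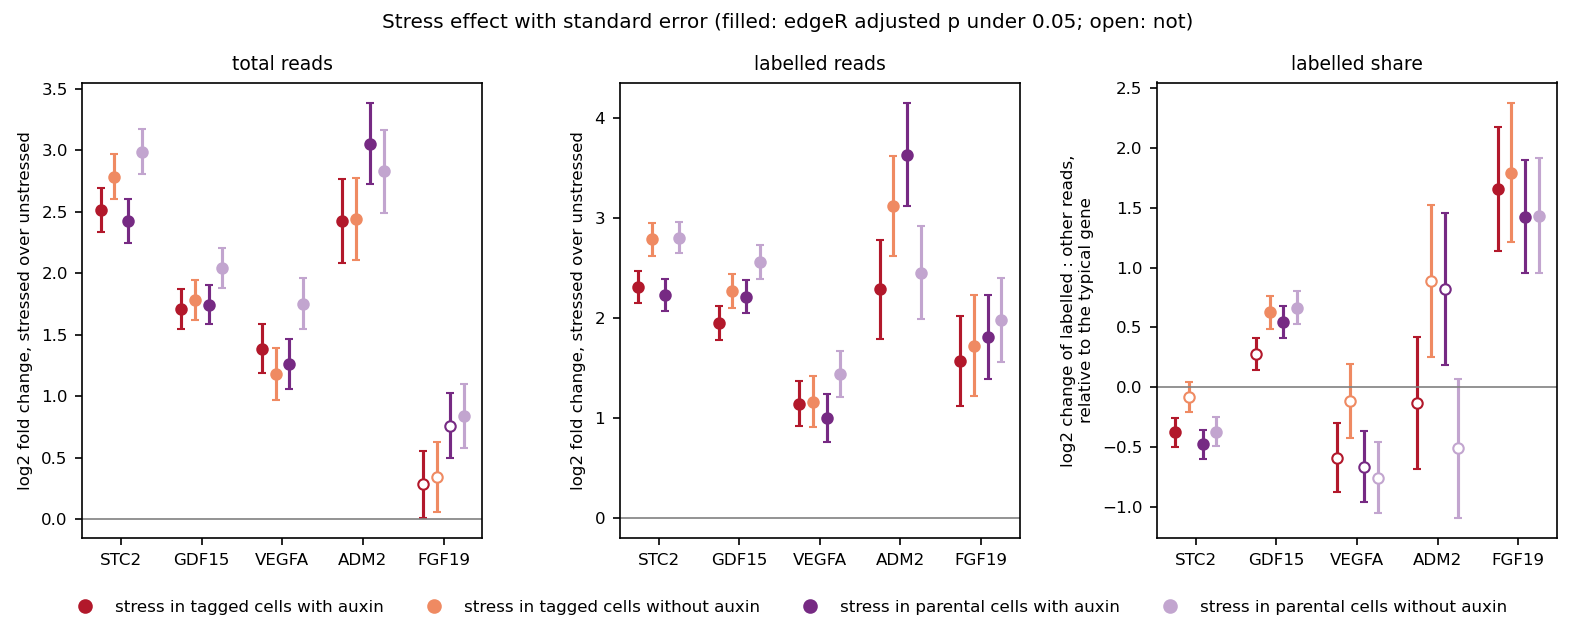
Log2 fold change with standard error, stressed over unstressed, of total reads, labelled reads and labelled share (labelled against other reads, relative to the typical gene) for the 5 tested genes in 4 comparisons. Filled points passed an edgeR adjusted p of 0.05 and open points did not. Labelled reads rise for every gene. The share lies above 0 for GDF15 and FGF19, passing in 3 and 4 of 4 comparisons, and below 0 for STC2, passing in 3, and for VEGFA, passing in 0.

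The labelled share did not move in 1 direction over the 5 genes. Relative to the typical gene it fell for STC2 in 3 of 4 stress comparisons and rose for GDF15 in 3 of 4 and for FGF19 in 4 of 4, while VEGFA, with values below 0, and ADM2, with values of both signs, passed in 0 of 4. In unstressed parental cells with vehicle, pooled over 4 libraries, 55.3% of VEGFA reads were labelled, a share above that of 95.6% of the 8980 genes tested, and 42.7% of STC2 reads, above 89.5% of genes. ADM2 stood at 36.4%, GDF15 at 24.8% and FGF19 at 16.5%, where the median gene had 18.8%. A read is labelled only if a T that it covers was converted, so ranks between genes also depend on the T positions covered. In stressed parental cells with vehicle the median gene had 15.5%, with 37.7% for VEGFA, 32.3% for STC2, 31.0% for FGF19, 29.8% for GDF15 and 24.3% for ADM2. Since the typical gene's share also fell, the test compared each gene's change with that of the typical gene. Of the 5 genes, 2 passed in tagged cells with auxin, against 7.14% of all genes, 2 in tagged cells without, against 7.07%, 3 in parental cells with auxin, against 8.08%, and 3 in parental cells without, against 8.17%.

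The STC2 share was 24.3%, 30.8%, 27.5% and 30.9% in stressed tagged cells with auxin, against 36.7%, 35.2%, 42.1% and 40.6% in unstressed ones. With vehicle it was 33.9%, 36.9%, 29.1% and 34.6% in stressed tagged cells, against 42.9%, 36.5%, 41.2% and 36.5% in unstressed ones. The first pair was separate, and the second met between 36.5% and 36.9%. Among parental cells with auxin the share was 29.5%, 31.6%, 29.5% and 30.7% when stressed, against 41.7%, 42.9%, 48.7% and 42.1% when unstressed. With vehicle it was 29.7%, 34.7%, 28.1% and 34.5% when stressed, against 44.0%, 53.4%, 41.0% and 36.1% when unstressed. Both parental pairs were separate. Relative to the typical gene, the log2 ratio of labelled to other STC2 reads fell by 0.38 ± 0.12 in tagged cells with auxin (edgeR adjusted p 0.0302), by 0.48 ± 0.12 in parental cells with auxin (0.00379) and by 0.37 ± 0.12 in parental cells without (0.0387). In tagged cells without auxin the change was -0.08 ± 0.13 (0.805). The call in tagged cells with auxin was lost, at 0.0522 to 0.156, without replicate 1 or 3 of the stressed or replicate 2, 3 or 4 of the unstressed group. The call in parental cells without auxin was lost, with values between -0.38 and -0.19 at adjusted p-values of 0.0661 to 0.460, without replicate 1 or 3 of the stressed or replicate 1 or 2 of the unstressed group, and the one in parental cells with auxin held in every such fit, with -0.50 (0.00181) without the smallest library.

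The GDF15 share was 24.1%, 25.8%, 26.0% and 29.2% in stressed tagged cells with auxin, against 27.6%, 31.6%, 27.6% and 19.7% in unstressed ones. With vehicle it was 26.1%, 27.0%, 28.3% and 26.6% in stressed tagged cells, against 26.4%, 20.2%, 25.1% and 18.1% in unstressed ones. In parental cells with auxin it was 20.9%, 28.8%, 25.8% and 29.4% when stressed, against 26.4%, 26.3%, 26.0% and 19.9% when unstressed. These 3 pairs overlapped. Parental cells with vehicle had shares of 27.1%, 33.3%, 27.0% and 29.8% when stressed, against 25.2%, 23.0%, 26.6% and 24.1% when unstressed, with no overlap. Relative to the typical gene, the log2 ratio of labelled to other GDF15 reads rose by 0.62 ± 0.14 in tagged cells without auxin (edgeR adjusted p 0.000615), by 0.55 ± 0.13 in parental cells with auxin (0.00304) and by 0.67 ± 0.14 in parental cells without (0.000179). In tagged cells with auxin it was 0.28 ± 0.14 (0.250), and 0.46 (0.0423) without replicate 2 of the unstressed group. Without the smallest library the value in parental cells with auxin was 0.57 (0.00198). Without centring on the typical gene the 3 calls were lost, with values of 0.37 (0.13), 0.18 (0.460) and 0.33 (0.121).

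The FGF19 share was 25%, 30.8%, 29.5% and 41.1% in stressed tagged cells with auxin, against 15.0%, 5.71%, 27.6% and 15.8% in unstressed ones. Without auxin it was 50.0%, 17.0%, 23.3% and 36.0% in stressed tagged cells, against 25%, 16.7%, 5.88% and 7.89% in unstressed ones. Parental cells with auxin had shares of 27.3%, 35.8%, 23.9% and 34.0% when stressed, against 4.48%, 29.7%, 20.3% and 20.8% when unstressed. Without auxin the parental shares were 34.9%, 40.7%, 20.5% and 25.5% when stressed, against 21.6%, 9.76%, 10.2% and 30.3% when unstressed. Each pair overlapped, and the stressed mean was higher in each. The log2 ratio of labelled to other FGF19 reads rose by 1.66 ± 0.52 and 1.79 ± 0.58 in tagged cells with and without auxin and by 1.42 ± 0.47 and 1.43 ± 0.48 in parental cells, with edgeR adjusted p-values of 0.0307, 0.0403, 0.0441 and 0.0461. These calls were near the threshold and rested on few reads. Each was lost without centring, with values of 1.37 (0.0672), 1.52 (0.0767), 1.05 (0.114) and 1.10 (0.0876), and also when single libraries were left out. In tagged cells with auxin these were replicate 4 of the stressed and replicates 1, 2 and 4 of the unstressed group (adjusted p 0.0695 to 0.126), and without auxin replicates 1 and 4 of the stressed and 2, 3 and 4 of the unstressed group (0.0503 to 0.193). For parental cells with auxin they were replicates 1, 2 and 4 of the stressed and 1, 3 and 4 of the unstressed group (0.0502 to 0.309), with 1.43 (0.0568) without the smallest library, which is the first of these, and without auxin replicates 1 and 2 of the stressed and 1, 2 and 3 of the unstressed group (0.0608 to 0.213).

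The VEGFA share was 32.9%, 31.9%, 39.8% and 36.6% in stressed tagged cells with auxin, against 56.2%, 43.9%, 46.4% and 58.1% in unstressed ones. With vehicle it was 33.7%, 31.0%, 27.0% and 48.0% in stressed tagged cells, against 37.1%, 41.9%, 39.7% and 45.2% in unstressed ones. The first pair was separate and the second overlapped. Among parental cells with auxin the share was 48.7%, 35.3%, 28.7% and 35.7% when stressed, against 52.9%, 47.8%, 59.5% and 49.1% when unstressed. Without auxin the parental shares were 35.0%, 39.0%, 36.7% and 38.2% when stressed, against 67.6%, 63.0%, 52.4% and 44.3% when unstressed. The overlap with auxin came from 1 stressed library, the smallest one, at 48.7%. Relative to the typical gene the changes were -0.59 ± 0.29 and -0.12 ± 0.31 in tagged cells with and without auxin and -0.67 ± 0.29 and -0.76 ± 0.30 in parental cells, with edgeR adjusted p-values of 0.237, 0.901, 0.171 and 0.106. Without the smallest library the value in parental cells with auxin was -0.82 (0.0736). Without centring they were -0.87 (0.0427) in tagged cells with auxin, -1.02 (0.0152) in parental cells with auxin and -1.09 (0.00863) without, so 3 of the 4 then passed. ADM2 shares rested on 0 to 6 labelled reads per unstressed library and did not pass in any comparison, with log2 changes of -0.14 ± 0.55 and 0.89 ± 0.64 in tagged cells with and without auxin and 0.82 ± 0.64 and -0.51 ± 0.58 in parental cells. The value with auxin in parental cells was also 0.82 (0.548) without the smallest library.

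**Figure D3:**
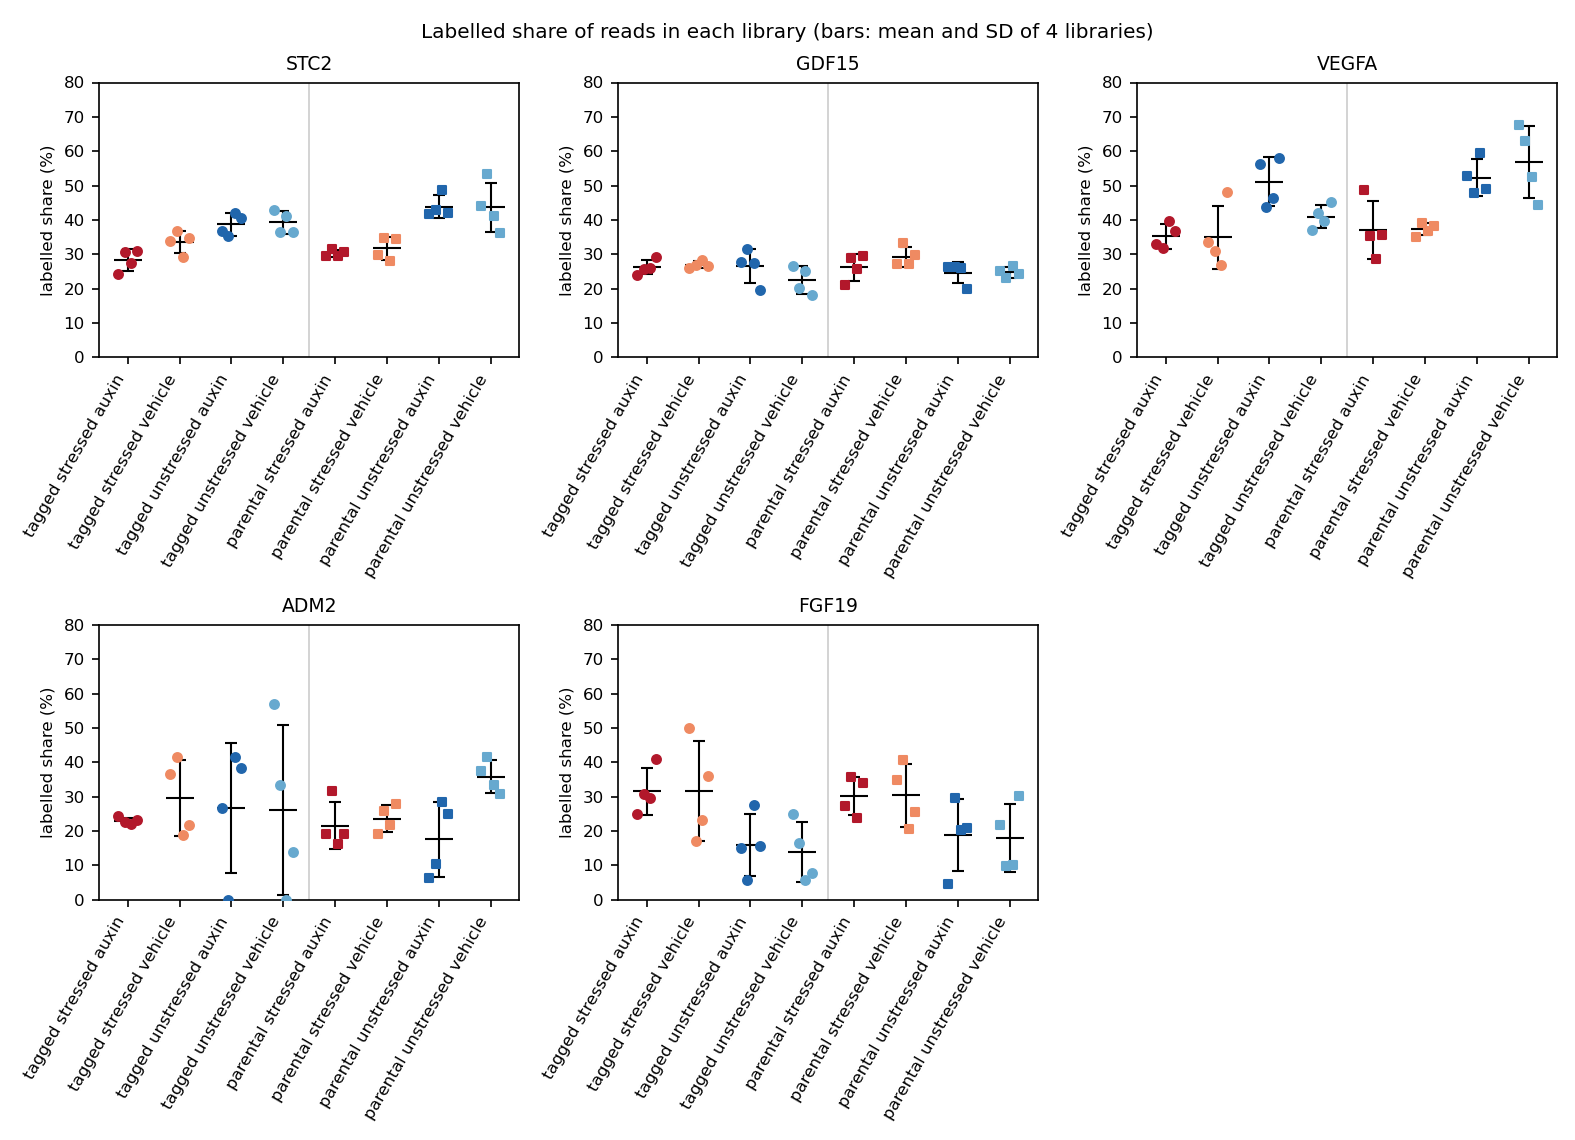
Labelled share in percent (reads with conversions among all reads of the gene) for 5 genes in each of the 32 libraries. Points are libraries, circles for tagged and squares for parental cells, and bars are the mean and SD of 4 libraries. Group means of STC2 and VEGFA are lower with stress, with overlap for both in tagged cells without auxin and for VEGFA in parental cells with auxin, and VEGFA passed in 0 of 4 comparisons. FGF19 means are higher with stress with overlap, and ADM2 scatters most, down to 0% in 2 unstressed tagged libraries with few reads.

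The second question was whether auxin, given to remove tagged IGF2BP3, moves these mRNAs. The loss of the protein itself was not measured in these libraries. None of the 5 tested genes passed the edgeR test on total reads in any auxin comparison. At an unadjusted p under 0.05 there were 1 gene in stressed tagged cells, 1 in unstressed tagged cells, 1 in stressed parental cells and 3 in unstressed parental cells, and DESeq2 called 0, 1, 0 and 1 of them. Over all genes edgeR called 0.0179%, 0.679%, 0.0179% and 7.2% in these 4 comparisons. At the unadjusted p there were 13.7%, 20%, 15.9% and 24.4% of all genes, and DESeq2 called 0.304%, 5.02%, 2.3% and 11.9%, so members at these levels are not set apart from other genes. How many of all genes had groups without overlap is not given here, so such separation sets no gene apart in the auxin comparisons. STC2 was higher in each auxin group of unstressed cells and did not overlap its vehicle group. It stood at 116, 129, 106 and 129 CPM with auxin against 79.0, 90.5, 75.4 and 86.4 CPM with vehicle in tagged cells, a log2 difference of 0.54 ± 0.18 (edgeR adjusted p 0.0954). In parental cells, which lack mAID, it stood at 113, 117, 105 and 127 CPM with auxin against 71.6, 79.7, 94.6 and 92.9 CPM with vehicle, a difference of 0.44 ± 0.17 (0.109). The difference between these effects, tagged minus parental, was 0.09 ± 0.25 with a 95% interval of -0.39 to 0.58.

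The smallest library is in neither of these comparisons but widens the spread that all groups share in the fit. Without it the STC2 values were 0.54 ± 0.09 (edgeR adjusted p 0.00181) in unstressed tagged cells and 0.44 ± 0.09 (0.00101) in unstressed parental cells, and both were called, in fits that called 1799 and 2808 of the 11186 genes. STC2 was called in unstressed tagged cells by DESeq2 as well (0.0408). GDF15 stood at 133, 92.4, 107 and 110 CPM with auxin against 124, 133, 122 and 117 CPM with vehicle in unstressed tagged cells (-0.17 ± 0.16, edgeR adjusted p 0.571). In unstressed parental cells it stood at 139, 120, 133 and 125 CPM with auxin against 103, 101, 94.4 and 80.8 CPM with vehicle (0.45 ± 0.16, 0.0785). The parental groups did not overlap, and the value was 0.46 ± 0.12 (0.00444) without the smallest library, in the fit that called 2808 genes. DESeq2 gave 0.46 (0.0393) with all libraries. The difference of the GDF15 auxin effects, tagged minus parental, was -0.61 ± 0.23 with a 95% interval of -1.06 to -0.17 and an edgeR adjusted p of 0.615, and -0.62 ± 0.16 (0.0654) without that library. In that comparison edgeR called 2 of all genes, and 66 without that library. An unadjusted p under 0.05 was found for 5.96% of all genes with all libraries.

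In stressed cells VEGFA stood at 54.0, 49.0, 62.2 and 54.8 CPM with auxin against 31.7, 40.9, 41.5 and 37.5 CPM with vehicle in the tagged line, with no overlap. The log2 difference of 0.54 ± 0.19 had an edgeR adjusted p of 0.291. It was 0.54 (0.00690) when only these 2 groups entered the fit and 0.53 (0.0793) without the smallest library. In stressed parental cells VEGFA differed by 0.04 ± 0.19 (0.958), and the difference between the lines was 0.50 ± 0.27 with a 95% interval of -0.03 to 1.03 (edgeR adjusted p 0.268). STC2 in stressed tagged cells stood at 651, 698, 627 and 774 CPM with auxin against 616, 601, 495 and 573 CPM with vehicle, also without overlap, a log2 difference of 0.27 ± 0.17 (0.484). With only these 2 groups in the fit it was 0.27 (0.0222). In stressed parental cells STC2 stood at -0.12 ± 0.17 with all libraries and at 0.11 ± 0.09 without the smallest one, a change of sign that rested on that library. ADM2 in stressed parental cells was 0.67 ± 0.27 (edgeR adjusted p 0.225), and 0.44 ± 0.24 (0.836) without it. The ADM2 auxin effect in stressed tagged minus stressed parental cells was -0.98 ± 0.39, with a 95% interval of -1.74 to -0.22 and an edgeR adjusted p of 0.176, and -0.75 ± 0.33 (0.293) without it. In that comparison edgeR called 0 of all genes and 21.7% had an unadjusted p under 0.05.

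**Figure D4:**
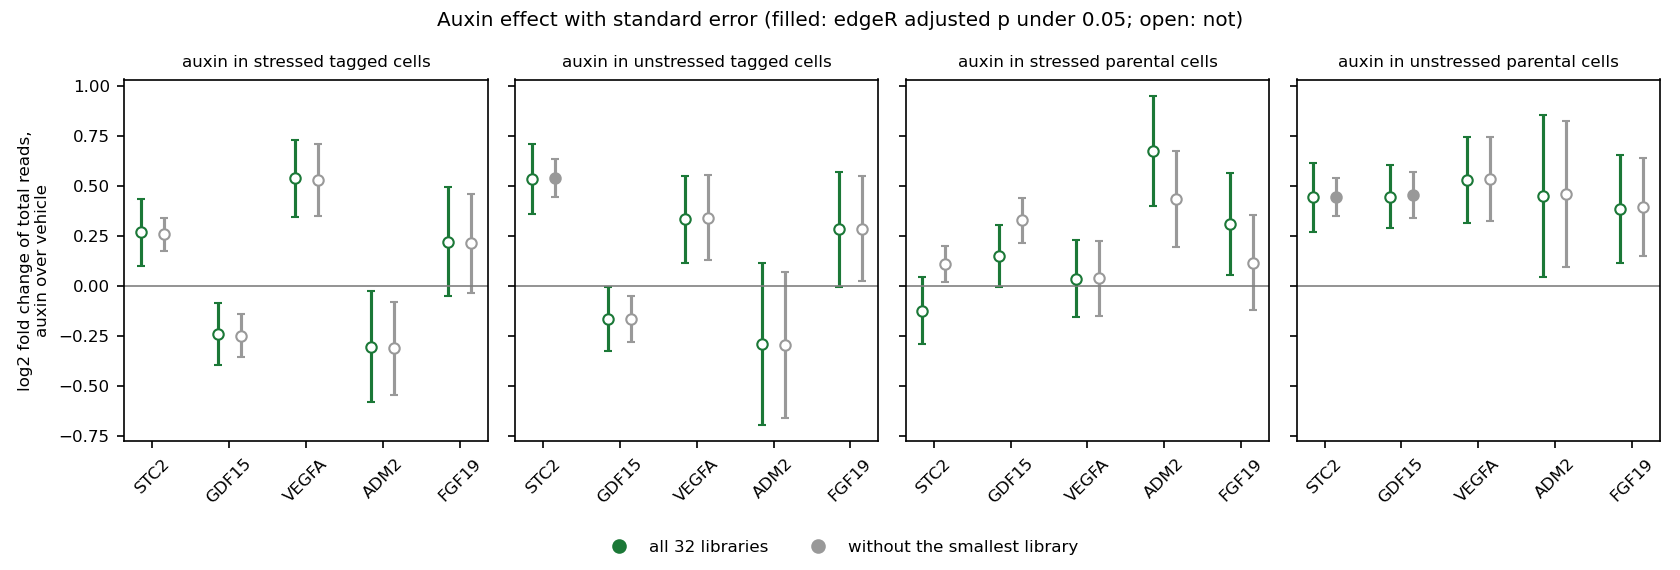
Log2 fold change with standard error of total reads, auxin over vehicle, for the 5 tested genes in 4 comparisons. Green points use all 32 libraries, grey points leave out the smallest one, and filled points passed an edgeR adjusted p of 0.05. The only filled points are those of STC2 in unstressed cells of both lines and of GDF15 in unstressed parental cells, all without the smallest library.

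Labelled reads gave the same picture for auxin, with 0 of 5 genes called by edgeR in each comparison, where 0 genes, 0.234%, 0.0111% and 0.601% of all genes were called in stressed tagged, unstressed tagged, stressed parental and unstressed parental cells. At an unadjusted p under 0.05 there were 1, 2, 0 and 2 of the 5, and 10.6%, 12.4%, 6.73% and 13.8% of all genes. Labelled STC2 reads differed by 0.63 ± 0.17 (edgeR adjusted p 0.0712) in unstressed tagged and 0.51 ± 0.16 (0.109) in unstressed parental cells, and by 0.64 (0.000476) and 0.53 (0.00314) without the smallest library. Without it 167 and 316 of all genes were called in these 2 comparisons. Labelled GDF15 reads in unstressed parental cells were at 0.50 ± 0.18 (0.156), and at 0.52 (0.0150) without it. Labelled VEGFA reads in stressed tagged cells were at 0.71 ± 0.22 (0.184). For the labelled share, 0 of 5 genes passed the edgeR test with auxin in any comparison, with 0, 2, 0 and 0 of them at an unadjusted p under 0.05, and limma called 0. The share over all genes was called for 0.212% of genes in unstressed parental cells and for none in the other 3 comparisons, and 6.88%, 7.26%, 5.31% and 7.62% of genes had an unadjusted p under 0.05. The 2 genes, both in unstressed tagged cells, were GDF15, at 0.47 ± 0.16 (edgeR adjusted p 0.423), and VEGFA, at 0.67 ± 0.34 (0.685).

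Whether auxin changes the stress response was asked of the interaction. In tagged cells the difference of the stress effect, auxin minus vehicle, was -0.27 ± 0.24 for STC2, -0.07 ± 0.22 for GDF15, 0.21 ± 0.29 for VEGFA, -0.02 ± 0.58 for ADM2 and -0.06 ± 0.39 for FGF19. Each edgeR adjusted p rounded to 1, no gene of the 11186 was called, and 0 of the 5 had an unadjusted p under 0.05 or were called by DESeq2. The 95% intervals reached from -0.74 to 0.21 for STC2 and from -0.51 to 0.36 for GDF15. The stress effect in tagged minus that in parental cells, both without auxin, was -0.20 ± 0.24 for STC2, -0.26 ± 0.22 for GDF15, -0.57 ± 0.29 for VEGFA and -0.39 ± 0.49 for ADM2. Of all genes, 0 were called there by edgeR, and the 5 genes had adjusted p-values of 0.650 to 0.816, with 0 at an unadjusted p under 0.05 and 0 called by DESeq2. Between unstressed vehicle-treated tagged and parental cells 0 of 5 genes were called by edgeR or DESeq2, against 0.241% of all genes by edgeR, and 1 had an unadjusted p under 0.05, as did 7.06% of all genes. That was GDF15, at 124 ± 6.37 CPM in tagged and 94.8 ± 10.1 CPM in parental cells (0.39 ± 0.16, edgeR adjusted p 0.544).

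Ordered by mean level, the 4 stressed groups of STC2, GDF15, VEGFA and ADM2 came first, and the lowest of them did not overlap the highest unstressed group. How common this was among all genes is not given here. Among the stressed groups neighbours overlapped for each gene. STC2 ran 688 CPM in tagged cells with auxin, 673 in parental cells with vehicle, 613 in parental cells with auxin and 571 in tagged cells with vehicle. Without the smallest library the STC2 mean of stressed parental cells with auxin was 724 ± 24.5 CPM (SD, n = 3), the highest of the 4. The unstressed STC2 groups formed a pair with auxin, 120 CPM in tagged and 115 CPM in parental cells, and a pair with vehicle, 84.7 CPM in parental and 82.8 CPM in tagged cells, that did not overlap the pair with auxin. FGF19 was highest in stressed parental cells, at 27.2 CPM with auxin and 20.4 CPM with vehicle, and then ran from 14.9 to 9.73 CPM with every neighbour overlapping. Without the smallest library its mean in stressed parental cells with auxin was 22.2 ± 3.22 CPM.

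Known regulators and benchmark genes of ER stress rose with the secreted factors. This list of 20 and those below were chosen with earlier results of these data known. Of its 17 tested genes, 16 rose in total reads in tagged cells with auxin and 17 in each of the other 3 stress comparisons, with medians of 2.22 and 2.43 in tagged cells with and without auxin and 2.44 and 2.92 in parental cells. Of all 11186 genes, 3.02% and 2.92% were called higher in tagged cells with and without auxin, and 7.26% and 7.65% in parental cells. DDIT3, which encodes CHOP, rose by 5.30 ± 0.21, 5.22 ± 0.21, 5.25 ± 0.21 and 5.10 ± 0.21 in these comparisons, and CHAC1, a glutathione-degrading enzyme, by 5.38 ± 0.29, 5.81 ± 0.31, 5.15 ± 0.27 and 5.06 ± 0.27. Their labelled shares moved both ways, as in the secreted factors. In parental cells without auxin 6 of 17 rose and 2 fell, among them ASNS, the asparagine synthetase, at 2.08 ± 0.20, HSPA5, the chaperone BiP, at 1.85 ± 0.08, and PPP1R15A, a phosphatase subunit that reverses PERK signalling, at -1.26 ± 0.22. In tagged cells without auxin 6 rose and 2 fell as well, with HSPA5 at 2.01 ± 0.08 and ASNS at 1.94 ± 0.21. Of all 8980 genes, the shares of 432 rose and 302 fell in parental cells without auxin, and 451 rose and 184 fell in tagged cells without auxin.

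Other secreted factors moved both ways. Of 43 listed genes 26 were tested in total reads, and 3 rose and 3 fell with stress in tagged cells with auxin, 4 and 3 in tagged cells without, 4 and 4 in parental cells with auxin and 10 and 5 in parental cells without. Of all 11186 genes, 338 rose and 126 fell, then 327 and 124, 812 and 357, and 856 and 588 in the same order. The medians of the 26 genes, 0.07, 0.05, 0.08 and -0.13 in the same order, lay near the median of all genes. CRELD2, an ER-resident protein that is also secreted, rose by 1.64 ± 0.13, 1.70 ± 0.13 and 1.79 ± 0.13 in the first 3 of these, and MANF, a secreted ER stress protein, by 1.30 ± 0.30 in tagged and 2.24 ± 0.31 in parental cells without auxin. The labelled shares of both rose too, by 1.81 ± 0.16 for CRELD2 and 1.15 ± 0.16 for MANF in parental cells without auxin. AREG, an EGFR ligand, rose by 2.64 ± 0.46 in parental cells without auxin and HBEGF, another, by 1.01 ± 0.13 in tagged cells without auxin. With auxin in unstressed parental cells 6 of the 26 rose and 0 fell, where 4.85% of all genes were called higher. Those with the largest changes were IL18 (2.67 ± 0.53), LIF (2.11 ± 0.61), AREG (1.73 ± 0.45) and CCN1 (1.33 ± 0.38). This comparison and that of stress in parental cells without auxin share their unstressed vehicle libraries. In unstressed tagged cells none of the 26 was called with auxin by edgeR, where 0.679% of all genes were.

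**Figure D5:**
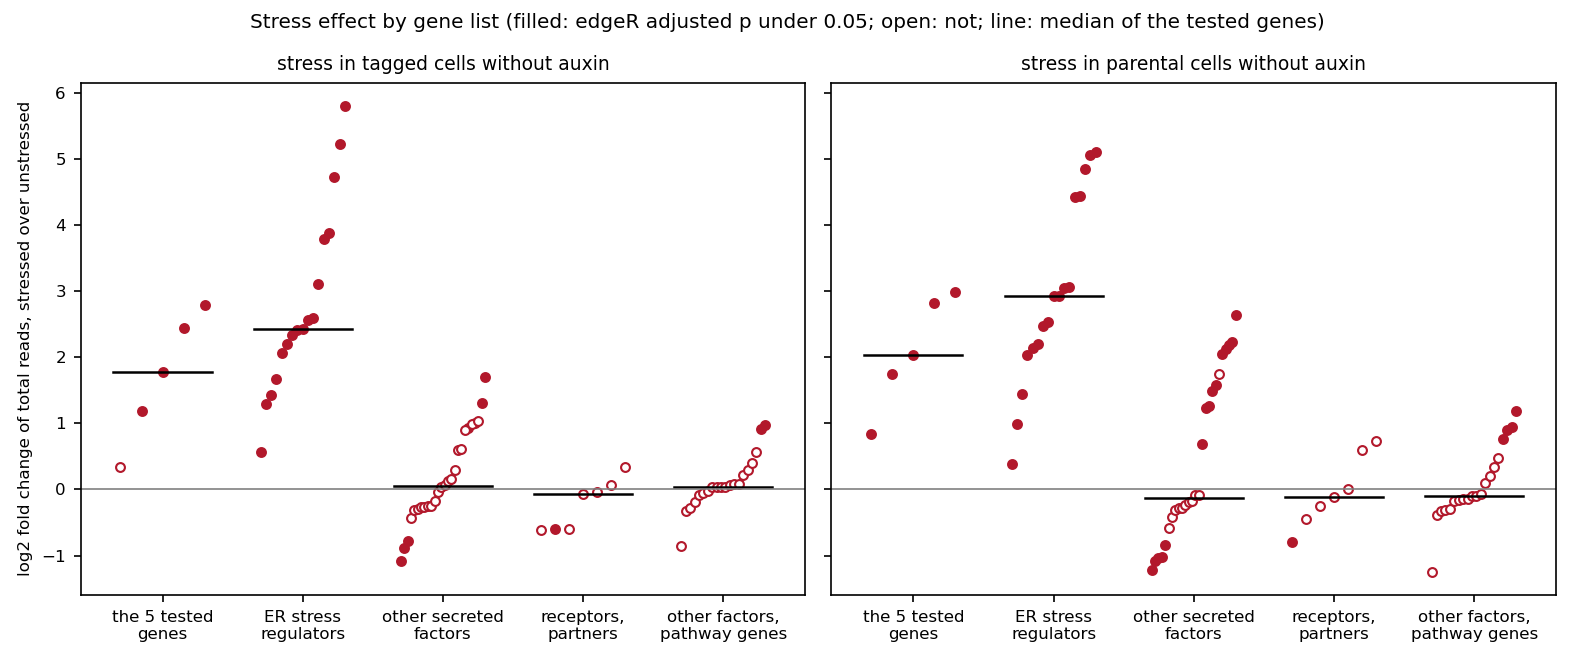
Log2 fold change of total reads, stressed over unstressed, in cells without auxin for the 5 tested genes and 4 lists of other genes, tagged cells on the left and parental cells on the right. Each point is a gene, filled where the edgeR adjusted p was under 0.05, and the line is the median of the tested genes. The ER stress regulators and the 5 genes lie above 0, while the other 3 lists centre near 0.

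Receptors and partners were mostly too low to test. Of 20 listed, 13 did not pass the filter on low counts in total reads. Of the 7 tested, 0 rose in any stress comparison, and 0 to 1 fell. Over all 11186 genes, 3.02% and 2.92% were called higher in tagged cells with and without auxin. In parental cells with and without auxin these were 7.26% and 7.65%. Called lower were 126, 124, 357 and 588 genes in the same order. FGFR3 fell by 0.79 ± 0.16 in parental cells without auxin (edgeR adjusted p 0.000671). In labelled reads 4 were tested, and 2, 3, 2 and 2 of them fell with stress in tagged cells with and without auxin and parental cells with and without auxin, with medians of -0.88, -1.44, -1.21 and -1.27. Their labelled shares fell for 1, 2, 2 and 3 of the 4, and 0 rose in either readout. Of all 8980 genes, 253, 224, 310 and 632 fell in labelled reads in the same order, and 187, 184, 242 and 302 fell in their share. Of 21 other genes, transcription factors known to act on these genes along with pathway genes such as NFKBIA, TNFAIP3, CDKN1A and MDM2, 20 were tested and 2 to 4 rose with stress, while 0 fell. Among all genes, 2.92% to 7.65% were called higher in total reads in these comparisons. EGR1 rose by 1.03 ± 0.12, 0.91 ± 0.12, 1.26 ± 0.12 and 0.90 ± 0.12 in tagged cells with and without auxin and parental cells with and without auxin, and JUN, a subunit of AP-1, by 0.88 ± 0.18, 0.97 ± 0.19, 1.42 ± 0.18 and 0.77 ± 0.18.

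Genes with the most similar pattern were found by Pearson's r of log2 CPM over the 32 libraries, given as a description, since stress separates the libraries and any gene of the stress response shares that split. For STC2 they were the amino acid transporter gene SLC38A2 (r 0.994), the pseudokinase gene TRIB3 (0.989) and HERPUD1 of ER-associated degradation (0.988). For GDF15 they were SEL1L, also of ER-associated degradation (0.979), DDIT4, an inhibitor of mTORC1 (0.972), and ASNS (0.970). VEGFA was most like ERRFI1, a feedback inhibitor of EGFR (0.959), PDIA4, an ER disulfide isomerase (0.957), and the zinc transporter gene SLC39A14 (0.954). ADM2 was most like SESN2, a sestrin (0.947), MSTO1 (0.946) and GADD45A, a growth arrest gene (0.942). FGF19 had no gene as close, with the protocadherin gene PCDH7 (0.785), SH3KBP1 (0.764) and the sulfate transporter gene SLC26A2 (0.762) at the top.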

How the data were processed

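Total and labelled reads were taken from 32 tables of counts, 1 per library, in the collapsed format of Slamdunk, and per the file headers each lists the read count and the count of reads with T-to-C conversions of each RefSeq transcript. The deposited counts are not normalised. The authors' CPM column, each count per 1 M reads of its file, and the deposited conversion rate, a fraction of covered T positions, were not used. The genome was hg38 per the submitters' processing notes, and the version of Slamdunk and the annotation release are not given in the sources used here. Libraries were QuantSeq 3′ libraries read from 1 end, per the labels' protocols. Groups were taken from the labels. For tagged cells without stress or auxin, the labels of replicates 1 and 2 repeat the tag name, and both were read as the same line.

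Of 95582 transcripts per file, 46332 matched a symbol of the RefSeq table (GRCh38.p14), giving 18829 named genes, of which 15105 were kept. Genes identical in every library to a kept gene were dropped, 72 of them with a mean of at least 1 read. Counts were tested with edgeR 4.0.16 in R 4.3.3 (quasi-likelihood, robust, TMM factors, filterByExpr, 1 coefficient per group over all 32 libraries) on 11186 genes for total reads and 8980 for labelled reads and shares, with Benjamini-Hochberg adjustment over all genes and a threshold of 0.05. For the share, labelled and other reads of a library were paired columns with a library term and TMM factors of their own, so that the log2 change of labelled against other reads is relative to the typical gene. The labelled share in percent is the count of labelled reads over all reads of the gene. CXCL8 was tested with exact permutations in scipy 1.17.1. Poisson intervals of read counts cover counting error only, since reads are not independent molecules. Standard errors of the edgeR log2 differences were derived as the absolute difference over the square root of the F statistic. The 95% intervals take these with a normal quantile, so they are approximate and not adjusted for the number of genes. The scripts were tested on simulated data.

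The alternatives were DESeq2 1.42.0, RLE factors, no filter, only the compared groups, the replicate number as a term, the longest counted region per gene, the first component of within-group differences (40.6% of the variance over 7119 genes) as a covariate, each library left out, total-read scaling, no centring, and limma 3.58.1 on log2 ratios with a pseudocount of 0.5. The 6 genes and the gene lists were chosen with earlier results of these data known. The genes named from a list are up to 4 with the largest changes among those called in a comparison, and EGR1 and JUN are given in all 4. The 3 genes most like each member were ranked by Pearson's r. Replicates of a group differed by more than sampling noise, with a chi-square per degree of freedom of 2.07 to 65.6. The pairs with the smallest library stood at 57.8 to 65.6, and every other pair at 17.3 or below. The reads of that library also covered fewer T positions each. Its 39 VEGFA reads covered 320 T positions, against 3654 for 136 reads in replicate 3 of its group.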

Additional observations from a re-analysis of the deposited data

Results flagged for a closer look

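In 4 of 80 combinations of gene, readout and group, 1 library lay far from the other 3 of its group, where chance at 1 in 20 gives 4. STC2 stood at 280 CPM in replicate 1 of stressed parental cells with auxin, the smallest library, with the others at 699 to 747 CPM. In unstressed parental cells with auxin the STC2 share was 48.7% in replicate 3, with the others at 41.7% to 42.9%. In the same group the GDF15 share was 19.9% in replicate 4, with the others at 26.0% to 26.4%, and ADM2 stood at 6.44 CPM in replicate 2, on 19 reads, with the others at 3.32 to 3.60 CPM. Only the first of these libraries also stood apart in depth, at 0.987 M reads, and its part in the results was measured by leaving it out.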

How the results depend on the processing

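Over the alternatives, 5250 values of the 5 tested genes kept their side of the threshold, 28 passed it newly and 57 no longer passed. No called value of these genes changed direction. Uncalled values could change direction, as that of STC2 with auxin in stressed parental cells did without the smallest library. Stress calls of STC2, GDF15, VEGFA and ADM2 in total and labelled reads held in every alternative run. The number of the 5 genes called with auxin in total reads, 0 by edgeR over all groups, was 2 and 1 in stressed tagged cells with only the compared groups and with the within-group component, 1, 1 and 1 in unstressed tagged cells with DESeq2, only the compared groups and the component, and 1, 2 and 3 in unstressed parental cells in the same order. Over all 11186 genes these fits called 1307 and 1575, then 562, 2086 and 2471, then 1326, 1643 and 3195. It was 1 for labelled reads in unstressed tagged cells with no filter. For the labelled share under stress in tagged cells without auxin it was 0 with limma and 0 without centring, against 2. The share of EREG in stressed parental cells without auxin changed sign, to -0.0092 with limma and -0.0074 without centring. The limma fit on log2 ratios, like the fit without centring, did not centre on the typical gene. The cause of these changes was not tested.

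With 1 library left out, total reads gave 4 to 5 called genes under stress in both parental comparisons, 0 to 2 with auxin in unstressed parental and 0 to 1 in unstressed tagged cells. Labelled reads gave 4 to 5 under stress in both tagged comparisons, 0 to 2 with auxin in unstressed parental and 0 to 1 in unstressed tagged cells. Shares gave 2 to 3 in parental cells with auxin, 1 to 3 without, 0 to 2 in tagged cells with auxin and 1 to 2 without.

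Over all genes, counts moved more. With each library left out the total-read calls under stress ran from 337 to 914 in tagged cells with auxin (464 with all), 349 to 869 without (451), 750 to 1947 in parental cells with auxin (1169) and 710 to 3397 without (1444). Over the other alternatives they ran from 410 to 1075, 412 to 951, 118 to 1699 and 1190 to 3918. With each library left out the auxin calls ran from 0 to 281 in stressed tagged, 2 to 1799 in unstressed tagged, 2 to 848 in stressed parental and 48 to 2808 in unstressed parental cells, and 8 to 147 for tagged against parental cells. The differences of the auxin effect ran from 0 to 1029 in stressed and 1 to 66 in unstressed cells. The highest counts came without the smallest library, apart from 1947, 848 and 1029, which came without replicate 4 of stressed parental cells with auxin. For auxin the other alternatives gave 1 to 1575 genes in stressed tagged (2), 29 to 2471 in unstressed tagged (76), 0 to 257 in stressed parental (2) and 571 to 3195 in unstressed parental cells (805), 13 to 507 for tagged against parental cells (27), and up to 693, 151 and 828 for the differences of the auxin effect in stressed and unstressed cells and of the stress effect between the lines. Labelled reads scaled by total reads split into 421 higher and 846 lower genes in tagged cells with auxin (623 and 253), 437 and 705 without (618 and 224), 452 and 1259 in parental cells with auxin (710 and 310) and 579 and 1786 without (909 and 632). Uncentred shares split into 210 and 902 (454 and 187), 247 and 744 (451 and 184), 195 and 1341 (484 and 242) and 210 and 1779 (432 and 302) in the same order.

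In total reads, same-numbered libraries deviated with correlations of -0.53 to 0.60 over 36 pairs. The labelled part of all reads followed the replicate number. In unstressed parental cells with vehicle it was 13.4%, 12.8%, 13.2% and 12.2% in order. Replicates 1 and 3 were highest in every unstressed group. Stressed parental cells with vehicle had 11.6%, 12.7%, 11.0% and 12.1%, and replicates 2 and 4 were highest in every stressed group. A replicate term shared by all groups cannot hold a pattern that reverses with stress. The cause of the pattern was not tested. With the replicate number as a replicate block, the FGF19 share in stressed parental cells was 1.40 (adjusted p 0.0529) with auxin and 1.41 (0.0559) without, and the other calls of the 5 genes held. Depth limits CXCL8, ADM2 and FGF19 most, and a 3′ count does not tell the transcripts of VEGFA apart.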
